A study of Mus musculus with 2 samples.

Results

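The endoplasmic reticulum (ER) stress and secretory genes are 30 mouse genes picked by symbol. All 30 were found in both deposited matrices, among 31055 genes listed. They comprise 14 chaperones and folding enzymes, 5 stress sensors and transcription factors, 5 genes of ER-associated degradation, 3 genes of the translocation channel and 3 targets of the factor ATF4. The rule uses their symbols and no measured value.

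The cells came from 2 untreated subcutaneous squamous cell carcinomas, labelled mosaic tumour replicate 1 and replicate 3, with FVB as the genotype. Each tumour was a mosaic: the squamous carcinoma lines CIT6, labelled with YFP, and CIT9, labelled with RFP, were coinjected. Immune cells of YFP+, RFP+ and mixed regions received light-printed oligonucleotide codes, tumour sections were digested with collagenases, and CD45+ cells were sorted and loaded on 10x 3' v3 droplets. Both samples form 1 group, so classes of cells were compared within tumours. Whether each tumour had its own host animal is not given in the labels, and p-values measure only the spread between these samples, which may be technical. Where a pair of values is given for a class, the first belongs to replicate 1 and the second to replicate 3.

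Proteins destined for secretion, for membranes and for lysosomes enter the ER through the SEC61 channel and are folded there by chaperones and disulfide isomerases. When unfolded proteins build up, the membrane sensors IRE1α, ATF6 and PERK start the unfolded protein response. IRE1α splices the Xbp1 transcript, ATF6 releases a transcription factor fragment, and PERK slows translation while favouring that of ATF4. These branches raise chaperone, degradation and amino acid metabolism genes, and prolonged signalling raises CHOP, the product of Ddit3. XBP1 is known for its part in secretory cells such as plasma cells, and plasmacytoid dendritic cells (DCs) are known for secreting type I interferon. ATF4 also answers other stresses through the shared phosphorylation of eIF2α, and its targets Asns, Chac1 and Trib3 are raised when amino acids are short.

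Promoter sequences show which of these genes hold the letters that XBP1, ATF6 and ATF4 are known to bind. RefSeq promoters of the GRCm38.p6 assembly, the build of the files' mm10 coordinates, were available for 26 of the 30 genes and cover 250 bases before to 50 bases after the start. Atf6, Manf, Sec61a1 and Hyou1 had no entry. The ER stress response element (ERSE), searched on both strands as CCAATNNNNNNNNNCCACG, lay in 8 of the 26 promoters (30.8%) and in 35 of all 27025 promoters (0.13%). The stretches below are shown because they carry that element. They read 5′ to 3′ on the strand of the gene, and capitals mark the CCAAT and CCACG parts or their reverse complement.
Hspa5: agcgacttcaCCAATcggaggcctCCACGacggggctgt
Calr: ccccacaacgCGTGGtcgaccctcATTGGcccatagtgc
Canx: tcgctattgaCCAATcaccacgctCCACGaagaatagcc
Pdia6: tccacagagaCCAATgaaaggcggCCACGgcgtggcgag
Syvn1: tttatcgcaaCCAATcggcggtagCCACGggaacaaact
Dnajc3: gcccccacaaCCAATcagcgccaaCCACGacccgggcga
Creld2: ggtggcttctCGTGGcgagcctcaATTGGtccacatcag
Hsp90b1 was the other gene with the element, which it held 2 times.

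On GRCm38.p6 these stretches are Hspa5 at chr2:34772015-34772053 (plus strand), Calr at chr8:84847065-84847103 (minus strand), Canx at chr11:50325790-50325828 (minus strand), Pdia6 at chr12:17266481-17266519 (plus strand), Syvn1 at chr19:6046522-6046560 (plus strand), Dnajc3 at chr14:118937817-118937855 (plus strand) and Creld2 at chr15:88819510-88819548 (plus strand), each upstream of the annotated start. The letters CCACG alone lay in 21 of the 26 promoters (80.8%) and in 32.7% of all promoters, so the whole element is the rarer feature. TGACGTGG, letters that XBP1 and ATF6 are known to bind, lay in 0 of the 26 promoters and in 0.607% of all promoters. A match is a description of letters and no evidence of binding, and a missing match says only that these letters are not in the window.

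The C/EBP-ATF response element, which ATF4 is known to bind and which was searched on both strands as TGATGNAA, lay in 4 of the 26 promoters (15.4%) and in 4.06% of all promoters. Trib3 held it after its start. The other 3 stretches are shown with the element in capitals, because Asns and Chac1 are ATF4 targets among the 30 genes and Herpud1 was called in 7 comparisons.
Herpud1: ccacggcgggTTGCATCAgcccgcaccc
Asns: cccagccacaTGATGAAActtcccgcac
Chac1: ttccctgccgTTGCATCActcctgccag
Their positions on GRCm38.p6 are Herpud1 at chr8:94386307-94386334 (plus strand), Asns at chr6:7693215-7693242 (minus strand) and Chac1 at chr2:119351039-119351066 (plus strand).

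The matrices held 89040909 gene UMIs in replicate 1 and 170328781 in replicate 3. After filters 4632 and 6371 cells remained, with medians of 16461.5 and 20755 UMIs, and 7 cell barcodes occurred in both tumours. Cells were placed in classes by gates on marker genes, none of which is among the 30 genes, and a class name stands for its gate. The reference class, other macrophages, held 1431 and 2206 cells that passed the macrophage gate and no subset gate. Classes ranged from 11 and 152 plasmacytoid DCs and 15 and 17 Ccr7 Fscn1 DCs to 433 and 822 T cells, and neutrophils with 422 and 34 cells at medians of 2532 and 2552 UMIs. Barcodes of 10 to 100 UMIs, taken as free RNA, held Hspa5 at 566 and 985 UMIs in each 1000000 (CPM), Xbp1 at 89.7 and 171 and Asns at 16.2 and 34.2, which any class can receive in part.

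UMIs were summed per class and tumour and tested with edgeR's quasi-likelihood test, with the tumour as a block. Each adjusted p is corrected by Benjamini-Hochberg over 12232 genes, and a gene was called at an adjusted p below 0.05. Levels are CPM of a class sum and are compared for 1 gene at a time, since 3' counts give no scale between genes. Fold changes are log2 ratios of the class to its reference after TMM scaling, with the standard error after ±. All comparisons but that of plasmacytoid with conventional DCs share other macrophages as reference, and none of their results is independent of it. Over 16 comparisons 124 calls were made among the 30 genes, and 120 of them had the same direction in both tumours. Agreement between tumours and a lack of overlap between groups are described for genes called on these same sums. Their shares over all called genes are not given, so they add no separate support. Without the tumour block 66 of the 124 calls held, and the other 58 missed the threshold.

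**Figure D1:**
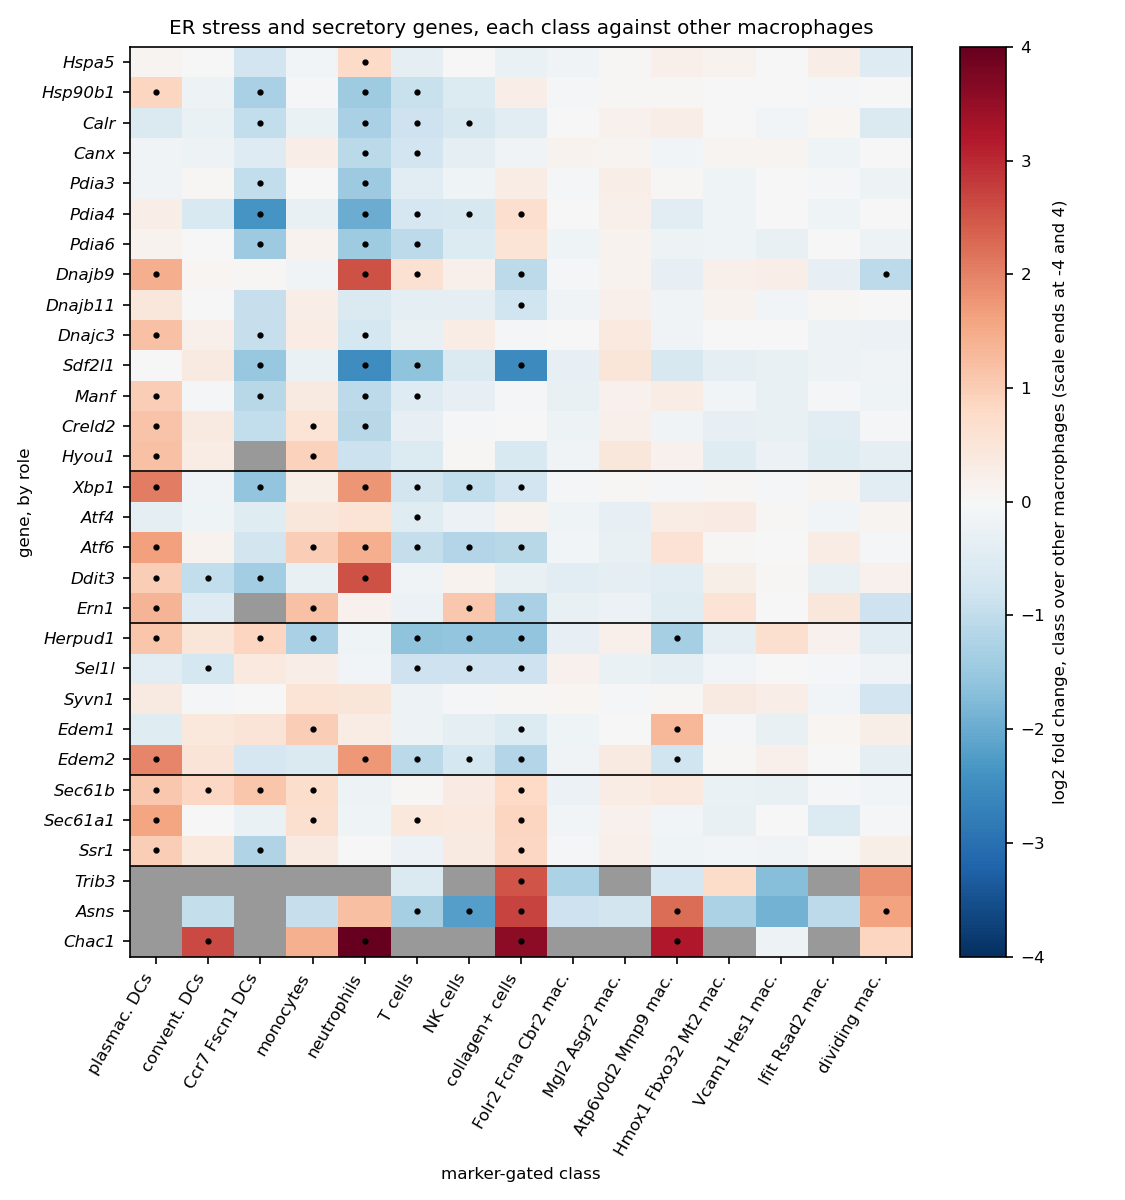
Log2 fold change of each of the 30 genes (rows, grouped by role) in 15 classes (columns) over other macrophages, on a colour scale from -4 to 4. Dots mark calls at an adjusted p below 0.05 and grey squares mark classes with at most 3 UMIs of the gene, where no value is shown. Plasmacytoid DCs hold 15 genes called higher, Ccr7 Fscn1 DCs 11, neutrophils 10, T cells 14 and collagen-positive cells 10 called lower.

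Plasmacytoid DCs had 15 of the 30 genes higher and 1 lower than other macrophages. Across the fit, 17.6% of the 12232 genes tested were called higher and 19% lower, and the median log2 fold change was 0.66 over the 30 genes and -0.13 over all genes tested. The 30 genes together made up 0.747% and 0.977% of the UMIs of plasmacytoid DCs, against 0.455% and 0.596% in other macrophages. Hspa5, Calr, Canx, Pdia3 and Dnajb11 were among the folding genes not called. By role, 4 of 5 sensors and factors, 3 of 3 translocon genes, 6 of 14 folding genes and 2 of 5 degradation genes were higher, and 1 of 3 ATF4 targets was lower.

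Xbp1, whose transcript IRE1α splices into an active factor, had 643 and 735 CPM in plasmacytoid DCs, against 140.2 and 158 in other macrophages (log2 fold change 2.04 ± 0.28, adjusted p = 1.75e-06). Atf6, the membrane-bound factor of the second branch, had 178 and 87.4 CPM in plasmacytoid DCs, against 32.5 and 30.6 in other macrophages (log2 fold change 1.63 ± 0.26, adjusted p = 1.47e-05). Both values of plasmacytoid DCs lay above both values of other macrophages for each gene. Ddit3, which encodes CHOP, had 74.0 and 136 CPM in plasmacytoid DCs, against 44.3 and 59.3 in other macrophages (log2 fold change 0.97 ± 0.25, adjusted p = 0.00261). Ern1, the gene of IRE1α, had 1 and 66 UMIs in plasmacytoid DCs, against 389 and 473 UMIs in other macrophages (log2 fold change 1.36 ± 0.33, adjusted p = 0.0021, with 1 UMI in replicate 1). The groups overlapped for Ern1, whose call rests on replicate 3, and its log2 fold change was -1.28 without that tumour. Atf4 did not pass the test and had 259 and 209 CPM in plasmacytoid DCs, against 247 and 266 in other macrophages (log2 fold change -0.39 ± 0.22, adjusted p = 0.181).

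All translocon genes rose. Sec61a1, the pore of the channel, had 163 and 184 CPM in plasmacytoid DCs, against 54.7 and 53.8 in other macrophages (log2 fold change 1.57 ± 0.19, adjusted p = 2.72e-07). Sec61b, a small channel subunit, had 902 and 950.2 CPM in plasmacytoid DCs, against 320.3 and 444 in other macrophages (log2 fold change 1.08 ± 0.22, adjusted p = 0.000254). Ssr1, a subunit of the translocon-associated protein complex, had 199.7 and 205 CPM in plasmacytoid DCs, against 92.4 and 91.8 in other macrophages (log2 fold change 0.99 ± 0.19, adjusted p = 0.000123). The groups did not overlap for these 3 genes.

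Folding genes were split, with 6 called and 8 not. Dnajc3, a J-domain protein that delivers clients to BiP, had 244 and 298 CPM in plasmacytoid DCs, against 114 and 108 in other macrophages (log2 fold change 1.18 ± 0.21, adjusted p = 5.85e-05). Dnajb9, another J-domain partner, had 222 and 211 CPM in plasmacytoid DCs, against 75.9 and 65.9 in other macrophages (log2 fold change 1.45 ± 0.27, adjusted p = 0.000134). Creld2, a secreted protein induced by ER stress, had 81.4 and 126 CPM in plasmacytoid DCs, against 30.7 and 54.9 in other macrophages (log2 fold change 1.14 ± 0.21, adjusted p = 0.000114). Both plasmacytoid DC values exceeded both macrophage values for each of them. The same held for Manf, Hyou1 and Hsp90b1, with log2 fold changes of 0.97, 1.19 and 0.87. Hspa5, which encodes BiP, the main Hsp70 of the ER lumen, had 747 and 1224 CPM in plasmacytoid DCs, against 635 and 983 in other macrophages (log2 fold change 0.10 ± 0.29, adjusted p = 0.815). Its values overlapped across tumours, and so did those of Pdia3, Pdia4, Pdia6, Sdf2l1 and Dnajb11. The last, another J-domain partner of BiP, had 111 and 221 CPM in plasmacytoid DCs, against 103 and 132 in other macrophages (log2 fold change 0.45 ± 0.25, adjusted p = 0.168). Within each tumour the level of Hspa5, Pdia6 and Dnajb11 was higher in plasmacytoid DCs, while Pdia3 and Pdia4 were lower there in replicate 1. TMM factors of 1.30 in plasmacytoid DCs and 1.05 in other macrophages lower the replicate 1 ratios in the fit.

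Of the degradation genes, Edem2, which trims mannose from misfolded glycoproteins, had 281 and 264 CPM in plasmacytoid DCs, against 71.0 and 55.4 in other macrophages (log2 fold change 1.96 ± 0.24, adjusted p = 4.29e-07). Herpud1, a membrane part of the degradation complex, was also called higher, with 392 and 629.5 CPM in plasmacytoid DCs, against 129.5 and 303 in other macrophages. Sel1l, Syvn1 and Edem1 were not called. Asns, the asparagine synthetase induced by ATF4, was lower: 0 and 2 UMIs in plasmacytoid DCs, against 135 and 1692 UMIs in other macrophages. In replicate 3 its level in plasmacytoid DCs was 0.0299 times that in other macrophages (exact 95% interval 0.00362 to 0.108, counting error only). The 0 of 135226 UMIs in replicate 1 allows up to 22.2 CPM. The adjusted p of Asns was 0.00135, and the call was lost without doublet removal. Chac1, an enzyme that degrades glutathione, had no UMI in either sum of plasmacytoid DCs.

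Genes of the same pathways outside the 30 were read from lists. Of protein targeting and translocation genes, 11 higher and 0 lower of 20 were called, led by Sec11c (log2 fold change 1.65 ± 0.23), a signal peptidase subunit, and Tram1 (log2 fold change 1.38 ± 0.18). Regulators of the response had 5 higher and 3 lower of 10, with Creb3l2 (log2 fold change 2.58 ± 0.32), a relative of Atf6, and Nupr1 (log2 fold change -5.58 ± 0.72) farthest apart. N-glycosylation had 4 higher and 0 lower of 12, including Uggt1 (log2 fold change 1.42 ± 0.21) and Stt3b (log2 fold change 1.29 ± 0.20). The degradation list had 2 higher and 1 lower of 13, with Selenos (log2 fold change 1.11 ± 0.23). Oxidative folding was mixed at 5 higher and 3 lower of 13, where Pdia5 (log2 fold change 2.08 ± 0.45) rose and Prdx4 (log2 fold change -2.10 ± 0.33) fell. ER to Golgi transport had 5 higher and 2 lower of 21, with Sec24d (log2 fold change 1.94 ± 0.30) and Tmed2 (log2 fold change 0.99 ± 0.18). ATF4 targets ran the other way at 2 higher and 6 lower of 20. Slc7a11, the cystine transporter, had 0 and 0 UMIs in plasmacytoid DCs, against 1634 and 606 UMIs in other macrophages, and Gpt2 had 0 and 0 UMIs in plasmacytoid DCs, against 145 and 217 UMIs in other macrophages.

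In plasmacytoid DCs the 7 gate markers summed to 9333 and 10000 CPM. The plasma cell list summed to 199.7 and 329 CPM, with 1 of 6 markers found in 10% of cells and Ighg1, Igha and Tnfrsf17 at 0. The B cell list summed to 44.4 and 39.8, with Cd79a, Ms4a1 and Pax5 among the markers at 0, and the macrophage list to 118 and 162, against 16890 and 17730 in other macrophages. Genes of dissociation stress were 0 higher and 8 lower of 13, led by Egr1 (log2 fold change -5.05 ± 0.90) and Hspa1a (log2 fold change -4.63 ± 1.12). The part of dissociation in the fold changes was not tested. Replicate 1 gave 11 plasmacytoid DCs with 135226 UMIs, against 152 with 2185782 UMIs in replicate 3, so most UMIs of this class came from 1 tumour. A fit without the replicate 1 sum leaves 1 sum of plasmacytoid DCs and cannot measure their spread, so its calls are not given. The median mitochondrial share was 6.38% and 6.06% in plasmacytoid DCs, the highest of the 16 classes tested, against 4.83% and 3.82% in other macrophages. At the 5% mitochondrial limit 3 and 13 plasmacytoid DCs were left, so neither plasmacytoid DC comparison was run there.

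**Figure D2:**
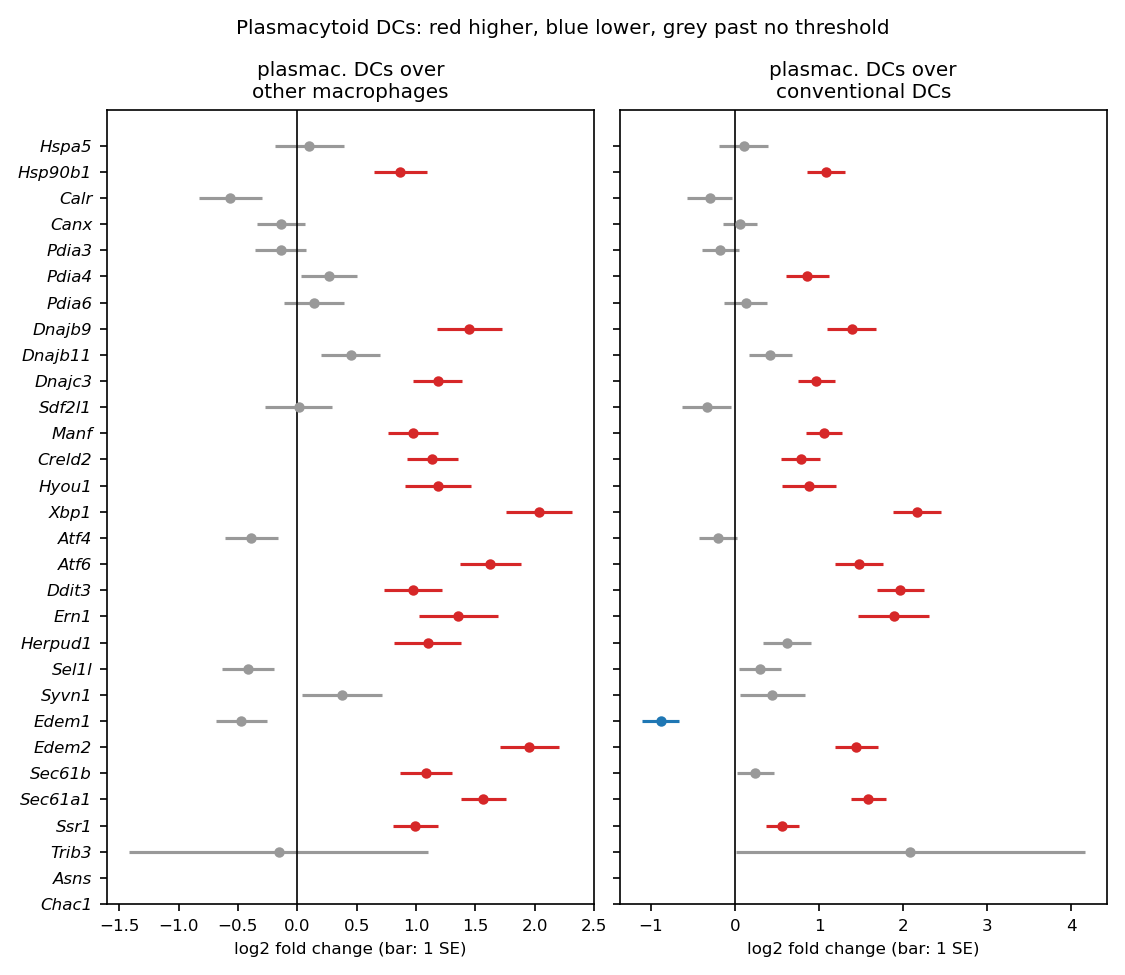
Log2 fold change ± 1 SE of the 30 genes in plasmacytoid DCs over other macrophages (left) and over conventional DCs (right). Red points were called higher, blue points lower and grey points passed no threshold, and Asns and Chac1 are not drawn because plasmacytoid DCs held at most 2 of their UMIs. Xbp1, Edem2, Atf6 and Sec61a1 lie above 1.4 in both panels while Hspa5 lies near 0 in both.

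Against conventional DCs, the other main dendritic lineage, plasmacytoid DCs had 14 of the 30 genes higher and 3 lower. For background, 14.2% of the 12232 genes tested were called higher and 18.3% lower, and the median log2 fold change was 0.59 over the 30 genes and -0.09 over all genes tested. This comparison shares the plasmacytoid DC sums with the one above. Conventional DCs devoted 0.456% and 0.539% of their UMIs to the 30 genes.

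Xbp1 had 643 and 735 CPM in plasmacytoid DCs, against 134 and 119 in conventional DCs (log2 fold change 2.16 ± 0.29, adjusted p = 2e-06). Ddit3 had 74.0 and 136 CPM in plasmacytoid DCs, against 14.1 and 33.6 in conventional DCs (log2 fold change 1.97 ± 0.28, adjusted p = 5.85e-06). Atf6 had 178 and 87.4 CPM in plasmacytoid DCs, against 29.3 and 34.3 in conventional DCs (log2 fold change 1.47 ± 0.29, adjusted p = 0.000266, 2.16 in replicate 1 alone). For these 3 factors both values of plasmacytoid DCs exceeded both values of conventional DCs. Ern1 was called on 1 and 66 UMIs in plasmacytoid DCs, against 19 and 12 UMIs in conventional DCs. Its values overlapped, and its log2 fold change was -0.97 without replicate 3 and 2.43 without replicate 1. Atf4 had a log2 fold change of -0.20 ± 0.22 and was not called.

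Sec61a1 had 163 and 184 CPM in plasmacytoid DCs, against 50.9 and 48.3 in conventional DCs (log2 fold change 1.58 ± 0.21, adjusted p = 1.45e-06). Sec61b had 902 and 950.2 CPM in plasmacytoid DCs, against 613 and 635 in conventional DCs, without a call (log2 fold change 0.24 ± 0.22, adjusted p = 0.434). Of the 2 channel subunits 1 was called. Of the folding genes, 7 rose. Manf, a BiP-binding factor that cells also secrete, had 577 and 657 CPM in plasmacytoid DCs, against 218 and 247 in conventional DCs (log2 fold change 1.06 ± 0.21, adjusted p = 0.000349). Dnajb9 had 222 and 211 CPM in plasmacytoid DCs, against 60.9 and 74.3 in conventional DCs (log2 fold change 1.39 ± 0.29, adjusted p = 0.000575). Hsp90b1, the ER member of the Hsp90 family, had 821 and 1356 CPM in plasmacytoid DCs, against 382 and 455 in conventional DCs (log2 fold change 1.08 ± 0.23, adjusted p = 0.000633). These values did not overlap. Hspa5 had 747 and 1224 CPM in plasmacytoid DCs, against 613 and 862 in conventional DCs (log2 fold change 0.11 ± 0.29, adjusted p = 0.843) and overlapped across tumours. Within each tumour its level before TMM scaling was higher in plasmacytoid DCs.

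Edem2 had 281 and 264 CPM in plasmacytoid DCs, against 87.8 and 78.5 in conventional DCs (log2 fold change 1.44 ± 0.26, adjusted p = 9.23e-05). Edem1, its relative in mannose trimming, went the other way, with 44.4 and 65.0 CPM in plasmacytoid DCs, against 114 and 85.7 in conventional DCs (log2 fold change -0.89 ± 0.22, adjusted p = 0.0033, -1.78 in replicate 1 alone). Neither Edem gene overlapped between the groups. Asns had 0 and 2 UMIs in plasmacytoid DCs, against 5 and 32 UMIs in conventional DCs, and in replicate 3 the ratio of levels was 0.0758 (exact 95% interval 0.0088 to 0.297). Chac1 had 0 and 0 UMIs in plasmacytoid DCs, against 5 and 4 UMIs in conventional DCs. Both were called lower, at adjusted p = 0.0346 and 0.0206. Asns lost the call with free RNA subtracted, without doublet removal and with stricter gates, and Chac1 lost it in DESeq2. The dividing markers summed to 0 and 14.6 CPM in plasmacytoid DCs, against 591 and 307 in conventional DCs, and their part in the Asns difference was not tested.

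Of the other lists, targeting and translocation had 13 higher and 0 lower of 20, with Tram1 (log2 fold change 1.27 ± 0.19) and Sec11c (log2 fold change 1.03 ± 0.23). Regulators had 5 higher and 2 lower of 10, with Creb3l2 (log2 fold change 2.92 ± 0.43) and Nupr1 (log2 fold change -3.31 ± 0.86). N-glycosylation had 4 higher and 0 lower of 12, with Stt3b (log2 fold change 1.58 ± 0.22) and Uggt1 (log2 fold change 0.79 ± 0.23). The degradation list had 3 higher and 1 lower of 13, with Selenos (log2 fold change 1.03 ± 0.23), and oxidative folding 4 higher and 2 lower of 13, with Prdx4 (log2 fold change -1.56 ± 0.35) and Pdia5 (log2 fold change 1.5 ± 0.54). Transport genes had 5 higher and 1 lower of 21, with Sec24d (log2 fold change 2.31 ± 0.37) and Tmed2 (log2 fold change 1.04 ± 0.18). ATF4 targets had 2 higher and 3 lower of 20. Slc7a11 had 0 and 0 UMIs in plasmacytoid DCs, against 34 and 45 UMIs in conventional DCs, and Ddit4, an inhibitor of mTORC1, had 0 and 3 UMIs in plasmacytoid DCs, against 42 and 73 UMIs in conventional DCs. Dissociation genes were 0 higher and 9 lower of 13, led by Egr1 (log2 fold change -5.86 ± 0.88) and Hspa1a (log2 fold change -4.19 ± 1.16). Cells passing both the plasmacytoid DC and cDC2 gates numbered 3 in replicate 1 and 47 in replicate 3. They were counted as plasmacytoid DCs unless they passed a further gate, so the plasmacytoid DC class includes cells with cDC2 markers.

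Conventional DCs had 2 of the 30 genes higher and 2 lower than other macrophages. In this comparison 12.6% of the 12232 genes tested were called higher and 10.2% lower, and the median log2 fold change was 0.0045 over the 30 genes and -0.009 over all genes tested. Sec61b had 613 and 635 CPM in conventional DCs, against 320.3 and 444 in other macrophages (log2 fold change 0.84 ± 0.21, adjusted p = 0.00413). Ddit3 had 14.1 and 33.6 CPM in conventional DCs, against 44.3 and 59.3 in other macrophages (log2 fold change -0.99 ± 0.25, adjusted p = 0.00449). Sel1l, the adaptor of the Hrd1 ubiquitin ligase, had 24.0 and 24.5 CPM in conventional DCs, against 44.8 and 42.2 in other macrophages (log2 fold change -0.71 ± 0.19, adjusted p = 0.00685). The groups did not overlap for these genes. Chac1 was called higher on few molecules, 5 and 4 UMIs in conventional DCs, against 4 and 29 UMIs in other macrophages (adjusted p = 0.00845).

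None of the 14 folding genes was called in conventional DCs. Hspa5 had 613 and 862 CPM in conventional DCs, against 635 and 983 in other macrophages (log2 fold change -0.0058 ± 0.28, adjusted p = 0.997). Xbp1 had 134 and 119 CPM in conventional DCs, against 140.2 and 158 in other macrophages (log2 fold change -0.13 ± 0.27, adjusted p = 0.79). Atf4 had a log2 fold change of -0.18 ± 0.20, and Asns one of -0.95 ± 0.54. Neither passed the test. Of ATF4 targets 4 higher and 5 lower of 20 were called, with Gdf15 (1 and 1 UMIs in conventional DCs, against 617 and 261 UMIs in other macrophages) and Gpt2 (log2 fold change -1.87 ± 0.68) lowest. Regulators had 0 higher and 2 lower of 10, Nupr1 (log2 fold change -2.27 ± 0.41) and Atf5 (log2 fold change -1.48 ± 0.32). Single calls fell to Sec11c (log2 fold change 0.62 ± 0.22), Uggt1 (log2 fold change 0.63 ± 0.19), Derl2 (log2 fold change -0.54 ± 0.18) and Mcfd2 (log2 fold change -1.12 ± 0.19) in the targeting, N-glycosylation, degradation and transport lists, and oxidative folding had none. The cDC2 markers summed to 1646 and 1801 CPM and the cDC1 markers to 329 and 373 in conventional DCs, and dissociation genes were 2 higher and 0 lower of 13, with Fosb (log2 fold change 0.83 ± 0.27) and Ier2 (log2 fold change 0.76 ± 0.24).

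Ccr7 Fscn1 DCs carry the markers of migratory dendritic cells and had 11 of the 30 genes lower and 2 higher than other macrophages. By the same test 10.1% of the 12232 genes tested were called higher and 9.89% lower, and the median log2 fold change was -0.95 over the 30 genes and -0.31 over all genes tested. The 30 genes made up 0.275% and 0.402% of their UMIs. By role, 8 of 14 folding genes and 2 of 5 sensors and factors were lower, and degradation and translocon genes held the 2 that were higher.

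Hsp90b1 had 163 and 224 CPM in Ccr7 Fscn1 DCs, against 487 and 562 in other macrophages (log2 fold change -1.31 ± 0.25, adjusted p = 0.000304). Pdia4, a disulfide isomerase, had 4.66 and 19.1 CPM in Ccr7 Fscn1 DCs, against 75.7 and 77.4 in other macrophages (log2 fold change -2.37 ± 0.46, adjusted p = 0.000406, with 1 UMI in replicate 1). Pdia6, of the same family, had 42.0 and 142 CPM in Ccr7 Fscn1 DCs, against 229 and 341 in other macrophages (log2 fold change -1.46 ± 0.30, adjusted p = 0.000659, -2.33 in replicate 1 alone). Pdia3, the isomerase that works with the lectin chaperones, had 112 and 175 CPM in Ccr7 Fscn1 DCs, against 237 and 384 in other macrophages (log2 fold change -0.98 ± 0.24, adjusted p = 0.00388). For each of them both Ccr7 Fscn1 DC values lay below both macrophage values. Manf had 97.9 and 137 CPM in Ccr7 Fscn1 DCs, against 206 and 349 in other macrophages (log2 fold change -1.10 ± 0.24, adjusted p = 0.00153). Sdf2l1, a partner of the co-chaperone Dnajb11, had 18.7 and 73.8 CPM in Ccr7 Fscn1 DCs, against 121 and 184 in other macrophages (log2 fold change -1.5 ± 0.38, adjusted p = 0.00543, -2.56 in replicate 1 alone). Calr and Dnajc3 were also called lower. Hspa5 had 294 and 582 CPM in Ccr7 Fscn1 DCs, against 635 and 983 in other macrophages, which did not pass the test (log2 fold change -0.77 ± 0.30, adjusted p = 0.0743).

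Xbp1 had 37.3 and 51.9 CPM in Ccr7 Fscn1 DCs, against 140.2 and 158 in other macrophages (log2 fold change -1.57 ± 0.40, adjusted p = 0.00523), the lowest pair of values of any class tested. Ddit3 was lower too, on 3 and 8 UMIs in Ccr7 Fscn1 DCs, against 1140 and 3277 UMIs in other macrophages. Atf4 was not called (log2 fold change -0.50 ± 0.23, adjusted p = 0.146), nor was Asns, with 1 and 2 UMIs in Ccr7 Fscn1 DCs, against 135 and 1692 UMIs in other macrophages. The translocon was split. Ssr1 had 37.3 and 35.5 CPM in Ccr7 Fscn1 DCs, against 92.4 and 91.8 in other macrophages (log2 fold change -1.22 ± 0.29, adjusted p = 0.00308), while Sec61b had 620 and 897 CPM in Ccr7 Fscn1 DCs, against 320.3 and 444 in other macrophages (log2 fold change 1.12 ± 0.22, adjusted p = 0.000426). Herpud1 had 349.6 and 319.8 CPM in Ccr7 Fscn1 DCs, against 129.5 and 303 in other macrophages (log2 fold change 0.87 ± 0.30, adjusted p = 0.0372, 1.54 in replicate 1 alone, 0.21 in replicate 3 alone). No called gene overlapped between Ccr7 Fscn1 DCs and other macrophages. Herpud1 lost its call with no filter on low counts, with free RNA subtracted and with stricter gates, and Ddit3 with the mitochondrial limit at 5%.

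Most wider lists held more genes called lower than higher in Ccr7 Fscn1 DCs. Targeting and translocation had 0 higher and 6 lower of 20, with Srprb (log2 fold change -1.46 ± 0.47) and Sec11c (log2 fold change -1.26 ± 0.32). N-glycosylation had 0 higher and 5 lower of 12, with Stt3b (log2 fold change -2.04 ± 0.44) and Rpn2 (log2 fold change -1.86 ± 0.31). Oxidative folding had 0 higher and 4 lower of 13, with P4hb (log2 fold change -2.13 ± 0.51) and Fkbp2 (log2 fold change -1.87 ± 0.34). Transport had 2 higher and 6 lower of 21, with Sec24d (log2 fold change 2.40 ± 0.39) and Tmed10 (log2 fold change -1.66 ± 0.22). ATF4 targets had 2 higher and 3 lower of 20, where Mthfd2 (log2 fold change 2.62 ± 0.30), an enzyme of mitochondrial folate metabolism, and Sesn2 (log2 fold change 1.80 ± 0.57) rose. Among regulators the call was Ppp1r15a (log2 fold change 1.39 ± 0.37), the phosphatase subunit GADD34, and in the degradation list Vcp (log2 fold change 0.76 ± 0.19). Dissociation genes were 0 higher and 1 lower of 13 (Fos log2 fold change -0.84 ± 0.26). The 6 gate markers summed to 6321 and 4605 CPM in Ccr7 Fscn1 DCs, from 15 and 17 cells.

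Monocytes had 7 of the 30 genes higher and 1 lower than other macrophages. Across the fit, 10.4% of the 12232 genes tested were called higher and 10.2% lower, and the median log2 fold change was 0.26 over the 30 genes and -0.07 over all genes tested. Edem1 had 157 and 162 CPM in monocytes, against 82.2 and 78.8 in other macrophages (log2 fold change 0.98 ± 0.18, adjusted p = 0.000267). Atf6 had 56.3 and 66.1 CPM in monocytes, against 32.5 and 30.6 in other macrophages (log2 fold change 0.99 ± 0.23, adjusted p = 0.003). Ern1 had 23.7 and 24.7 CPM in monocytes, against 15.1 and 8.56 in other macrophages (log2 fold change 1.17 ± 0.28, adjusted p = 0.00374). The groups did not overlap for these 3 genes, 2 of which encode sensors. Hyou1, a nucleotide exchange partner of BiP, had 19.8 and 31.3 CPM in monocytes, against 14.2 and 15.0 in other macrophages (log2 fold change 0.91 ± 0.23, adjusted p = 0.00627). Sec61a1 had 82.0 and 88.4 CPM in monocytes, against 54.7 and 53.8 in other macrophages (log2 fold change 0.65 ± 0.18, adjusted p = 0.0114), and Sec61b had 622 and 618 CPM in monocytes, against 320.3 and 444 in other macrophages (log2 fold change 0.70 ± 0.21, adjusted p = 0.02). Creld2 overlapped across tumours, with 38.5 and 86.2 CPM in monocytes, against 30.7 and 54.9 in other macrophages (log2 fold change 0.56 ± 0.19, adjusted p = 0.0408). Within each tumour monocytes had more of it.

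Herpud1 was the 1 gene called lower in monocytes, with 44.5 and 134 CPM in monocytes, against 129.5 and 303 in other macrophages (log2 fold change -1.29 ± 0.28, adjusted p = 0.00184). Its groups overlapped, but replicate 3 was the higher tumour in both classes, and within each tumour monocytes were lower. Hspa5 had 522 and 1008 CPM in monocytes, against 635 and 983 in other macrophages (log2 fold change -0.12 ± 0.28, adjusted p = 0.803). Xbp1, Atf4, Ddit3 and Asns were not called either, with log2 fold changes of 0.24 ± 0.27, 0.44 ± 0.20, -0.28 ± 0.24 and -0.91 ± 0.51. DESeq2 called 6 genes higher and 2 lower. Creld2 lost its call under 5 alternatives, Sec61b under 3 and Sec61a1 with no filter on low counts.

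The other lists gave few calls in monocytes. Targeting and translocation had 3 higher and 0 lower of 20, with Ssr3 (log2 fold change 0.87 ± 0.23) and Sec61g (log2 fold change 0.69 ± 0.21). ATF4 targets had 1 higher and 4 lower of 20, with Gpt2 (log2 fold change -1.86 ± 0.64) and Slc7a11 (log2 fold change 1.54 ± 0.37). Oxidative folding had 1 higher and 1 lower of 13, with Prdx4 (log2 fold change -1.10 ± 0.26) and Ero1l (log2 fold change 1.04 ± 0.35), the ER oxidase, and the degradation list 1 higher and 1 lower of 13, with Erlec1 (log2 fold change -0.84 ± 0.20) and Ube2j1 (log2 fold change 0.67 ± 0.19). Single calls were Ppp1r15b (log2 fold change 0.93 ± 0.22), Uggt1 (log2 fold change 0.59 ± 0.19) and Sec24b (log2 fold change 0.59 ± 0.19) among regulators, N-glycosylation and transport. The macrophage list summed to 2253 and 1870 CPM in monocytes, against 16890 and 17730 in other macrophages, and the monocyte list to 3530 and 3129 in monocytes. Dissociation genes were 0 higher and 1 lower of 13 (Hspa1b log2 fold change -1.79 ± 0.62).

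Neutrophils had 7 of the 30 genes higher and 10 lower than other macrophages. For background, 21% of the 12232 genes tested were called higher and 16.3% lower, and the median log2 fold change was -0.17 over the 30 genes and -0.33 over all genes tested. All 10 genes called lower were folding genes. Of the 7 higher, 3 were sensors and factors and 2 were folding genes. The 7 higher genes make up a share of the 30 near that of all genes. Neutrophil sums were scaled by TMM factors of 0.506 and 1.02, so in replicate 1 the fitted log2 fold changes lie about 1 unit above the log2 ratio of the levels printed beside them.

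Ddit3 had 147 and 220.2 CPM in neutrophils, against 44.3 and 59.3 in other macrophages (log2 fold change 2.53 ± 0.25, adjusted p = 6.8e-09, 1.85 in replicate 3 alone). Xbp1 had 335 and 202 CPM in neutrophils, against 140.2 and 158 in other macrophages (log2 fold change 1.77 ± 0.28, adjusted p = 1.73e-05, 0.32 in replicate 3 alone). The groups did not overlap for either factor, although replicate 3 gave a smaller difference in Xbp1. Dnajb9, a co-chaperone that Xbp1 is known to induce, had 265 and 193 CPM in neutrophils, against 75.9 and 65.9 in other macrophages (log2 fold change 2.55 ± 0.28, adjusted p = 4.37e-08, 1.5 in replicate 3 alone). Edem2 had 129.6 and 82.6 CPM in neutrophils, against 71.0 and 55.4 in other macrophages (log2 fold change 1.73 ± 0.27, adjusted p = 8.99e-06, 0.54 in replicate 3 alone). Neither overlapped, and both were closer to other macrophages in replicate 3. Chac1 had 12 and 2 UMIs in neutrophils, against 4 and 29 UMIs in other macrophages (log2 fold change 5.96 ± 0.71, adjusted p = 4.75e-07, 5.13 in replicate 1 alone, with 2 UMIs in replicate 3). Atf6 had 52.1 and 27.5 CPM in neutrophils, against 32.5 and 30.6 in other macrophages (log2 fold change 1.44 ± 0.31, adjusted p = 0.000534, with 3 UMIs in replicate 3). Hspa5 had 783 and 789 CPM in neutrophils, against 635 and 983 in other macrophages (log2 fold change 0.75 ± 0.29, adjusted p = 0.0432, 1.36 in replicate 1 alone, -0.35 in replicate 3 alone). Atf6 and Hspa5 overlapped between the groups and pointed down in replicate 3.

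The enzymes of glycoprotein folding were low in neutrophils. Pdia3 had 47.5 and 110.1 CPM in neutrophils, against 237 and 384 in other macrophages (log2 fold change -1.45 ± 0.25, adjusted p = 4.35e-05). Calr, a lectin chaperone, had 160.3 and 275 CPM in neutrophils, against 713 and 869 in other macrophages (log2 fold change -1.30 ± 0.28, adjusted p = 0.000565). Canx, its membrane-bound relative, had 49.8 and 82.6 CPM in neutrophils, against 209 and 199.7 in other macrophages (log2 fold change -1.07 ± 0.23, adjusted p = 0.000657). Both neutrophil values lay below both macrophage values for each. Sdf2l1 had 13.0 and 9.18 CPM in neutrophils, against 121 and 184 in other macrophages (log2 fold change -2.47 ± 0.43, adjusted p = 5.33e-05, with 1 UMI in replicate 3). Pdia4 had 9.97 and 9.18 CPM in neutrophils, against 75.7 and 77.4 in other macrophages (log2 fold change -2.0 ± 0.40, adjusted p = 0.000282, with 1 UMI in replicate 3). Replicate 3 held 1 UMI of each of these. Hsp90b1 had 86.6 and 211 CPM in neutrophils, against 487 and 562 in other macrophages (log2 fold change -1.43 ± 0.25, adjusted p = 6.55e-05), Pdia6 had 41.4 and 129 CPM in neutrophils, against 229 and 341 in other macrophages (log2 fold change -1.43 ± 0.30, adjusted p = 0.000414), and Manf had 53.7 and 147 CPM in neutrophils, against 206 and 349 in other macrophages (log2 fold change -1.05 ± 0.24, adjusted p = 0.00106). Dnajc3 and Creld2 were also called lower. Atf4 (log2 fold change 0.54 ± 0.22, adjusted p = 0.0532), Sec61b (adjusted p = 0.521) and Asns (adjusted p = 0.226) were not called.

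Other genes followed in neutrophils: N-glycosylation had 0 higher and 6 lower of 12, with Ddost (log2 fold change -1.97 ± 0.31) and Rpn2 (log2 fold change -1.64 ± 0.30), and targeting and translocation had 1 higher and 10 lower of 20, with Srp68 (log2 fold change -1.77 ± 0.55) and Srprb (log2 fold change -1.73 ± 0.46). Oxidative folding had 3 higher and 6 lower of 13, with Prdx4 (log2 fold change -3.34 ± 0.54) and Ero1l (log2 fold change 3.23 ± 0.38). ATF4 targets had 4 higher and 6 lower of 20, with Slc7a11 (log2 fold change 5.18 ± 0.41) and Sesn2 (log2 fold change 3.97 ± 0.33). Regulators had 3 higher and 2 lower of 10, with Ppp1r15a (log2 fold change 2.96 ± 0.37) and Ppp1r15b (log2 fold change 1.63 ± 0.28). The degradation list had 3 higher and 3 lower of 13, with Erlec1 (log2 fold change -1.77 ± 0.37) and Derl1 (log2 fold change 1.16 ± 0.20), and transport 2 higher and 3 lower of 21, with Lman1 (log2 fold change -1.66 ± 0.38) and Sar1a (log2 fold change 0.95 ± 0.21). Dissociation genes had 7 higher and 2 lower of 13, led by Egr1 (log2 fold change 2.75 ± 0.49) and Dusp1 (log2 fold change 2.63 ± 0.32), and their part was not tested. The macrophage list summed to 922 and 1551 CPM in neutrophils.

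Replicate 1 decided much of the neutrophil result. Without its sum, on 34 cells of replicate 3, 8 of the 30 genes were called, 3 higher and 5 lower. Hspa5 then had a log2 fold change of -0.35 and Atf6 of -0.15, and Xbp1, Edem2, Pdia4, Pdia6, Manf, Creld2 and Dnajc3 lost their calls. Without the replicate 3 sum 17 genes were called.

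T cells had 14 of the 30 genes lower and 2 higher than other macrophages. In this comparison 29.6% of the 12232 genes tested were called higher and 24% lower, and the median log2 fold change was -0.53 over the 30 genes and 0.08 over all genes tested. The lower genes spanned folding, with 7 of 14, sensors and factors, with 3 of 5, and degradation, with 3 of 5. The 30 genes made up 0.329% and 0.390% of the UMIs of T cells.

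Sdf2l1 had 37.0 and 64.5 CPM in T cells, against 121 and 184 in other macrophages (log2 fold change -1.61 ± 0.27, adjusted p = 1.51e-05). Herpud1 had 47.8 and 91.6 CPM in T cells, against 129.5 and 303 in other macrophages (log2 fold change -1.61 ± 0.28, adjusted p = 2.63e-05). Sel1l had 26.7 and 23.5 CPM in T cells, against 44.8 and 42.2 in other macrophages (log2 fold change -0.82 ± 0.18, adjusted p = 0.000339). Both T cell values lay below both macrophage values for each, as they did for the next 5 genes. Edem2 had 34.4 and 27.4 CPM in T cells, against 71.0 and 55.4 in other macrophages (log2 fold change -1.06 ± 0.24, adjusted p = 0.000598). Pdia6 had 118 and 161 CPM in T cells, against 229 and 341 in other macrophages (log2 fold change -1.05 ± 0.24, adjusted p = 0.000709). Canx had 113 and 128 CPM in T cells, against 209 and 199.7 in other macrophages (log2 fold change -0.78 ± 0.18, adjusted p = 0.000864). These 3 belong to the handling of glycoproteins and disulfides. Hsp90b1 had 271 and 309 CPM in T cells, against 487 and 562 in other macrophages (log2 fold change -0.88 ± 0.22, adjusted p = 0.00173), and Atf6 had 23.7 and 12.0 CPM in T cells, against 32.5 and 30.6 in other macrophages (log2 fold change -0.96 ± 0.25, adjusted p = 0.00225). Of the remaining 6 lower genes, Manf and Asns overlapped between the groups, and Calr, Pdia4, Xbp1 and Atf4 did not. All 16 calls in T cells had the same direction in both tumours.

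Sec61a1 was higher in T cells, with 78.4 and 70.0 CPM in T cells, against 54.7 and 53.8 in other macrophages (log2 fold change 0.42 ± 0.17, adjusted p = 0.0415). Dnajb9 was the other gene called higher, with 113 and 105 CPM in T cells, against 75.9 and 65.9 in other macrophages (log2 fold change 0.60 ± 0.25, adjusted p = 0.045). Neither overlapped. Sec61a1 lost its call under 6 alternatives and Dnajb9 under 7, with a log2 fold change of -0.18 under the stricter cell filter. The free RNA held Dnajb9 at 75.7 and 108 CPM. Atf4 lost its call at the 5% mitochondrial limit and Asns under 4 alternatives. Hspa5 (log2 fold change -0.40 ± 0.28, adjusted p = 0.241), Ddit3 (adjusted p = 0.637) and Sec61b (adjusted p = 0.914) were not called.

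Oxidative folding genes were 0 higher and 8 lower of 13 in T cells, with P4hb (log2 fold change -2.03 ± 0.38), the founding disulfide isomerase, and Pdia5 (0 and 3 UMIs in T cells, against 55 and 160 UMIs in other macrophages). N-glycosylation had 1 higher and 4 lower of 12, with Rpn1 (log2 fold change -1.17 ± 0.22) and Rpn2 (log2 fold change -0.75 ± 0.21), and transport 1 higher and 5 lower of 21, with Mcfd2 (log2 fold change -2.32 ± 0.19) and Tmed10 (log2 fold change -0.85 ± 0.18). ATF4 targets had 2 higher and 7 lower of 20, with Gdf15 (log2 fold change -3.84 ± 0.91) and Slc7a11 (log2 fold change -3.76 ± 0.57). Regulators had 3 higher and 4 lower of 10, with Nupr1 (log2 fold change -4.25 ± 0.46) and Atf5 (log2 fold change -1.49 ± 0.27). Targeting had 3 higher and 2 lower of 20, with Srp54a (log2 fold change 1.07 ± 0.23) and Ssr2 (log2 fold change -0.56 ± 0.21), and the degradation list 2 higher and 1 lower of 13, with Os9 (log2 fold change -0.71 ± 0.18) and Ube2j1 (log2 fold change 0.59 ± 0.18). The macrophage list summed to 428 and 341 CPM in T cells, and dissociation genes were 1 higher and 7 lower of 13, led by Hspa1a (log2 fold change -3.13 ± 0.78) and Fos (log2 fold change -2.51 ± 0.26).

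NK cells had 8 of the 30 genes lower and 1 higher than other macrophages. By the same test 23.2% of the 12232 genes tested were called higher and 21.6% lower, and the median log2 fold change was -0.36 over the 30 genes and 0.016 over all genes tested. The 8 lower genes make up a share of the 30 near that of all genes. Herpud1 had 36.6 and 105 CPM in NK cells, against 129.5 and 303 in other macrophages (log2 fold change -1.58 ± 0.29, adjusted p = 6.91e-05). Sel1l had 28.4 and 20.4 CPM in NK cells, against 44.8 and 42.2 in other macrophages (log2 fold change -0.82 ± 0.20, adjusted p = 0.0014). Edem2 had 39.6 and 34.9 CPM in NK cells, against 71.0 and 55.4 in other macrophages (log2 fold change -0.71 ± 0.26, adjusted p = 0.0262). These 3 degradation genes did not overlap between the groups. Atf6 had 16.4 and 11.2 CPM in NK cells, against 32.5 and 30.6 in other macrophages (log2 fold change -1.19 ± 0.30, adjusted p = 0.00206). Xbp1 had 58.3 and 87.6 CPM in NK cells, against 140.2 and 158 in other macrophages (log2 fold change -0.97 ± 0.28, adjusted p = 0.00636). Ern1, the sensor that splices Xbp1, was the 1 gene called higher, with 23.9 and 22.0 CPM in NK cells, against 15.1 and 8.56 in other macrophages (log2 fold change 1.08 ± 0.30, adjusted p = 0.00402).

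Asns was lower too, with 3 and 11 UMIs in NK cells, against 135 and 1692 UMIs in other macrophages (log2 fold change -2.22 ± 0.69, adjusted p = 0.0102, with 3 UMIs in replicate 1). Pdia4 had 54.6 and 42.8 CPM in NK cells, against 75.7 and 77.4 in other macrophages (log2 fold change -0.63 ± 0.23, adjusted p = 0.0272), and Calr had 454 and 516 CPM in NK cells, against 713 and 869 in other macrophages (log2 fold change -0.65 ± 0.26, adjusted p = 0.0424). None of these called genes overlapped between NK cells and other macrophages, and the share over all called genes is not given. Hspa5, Atf4, Ddit3 and Sec61b were not called, with log2 fold changes of 0.019 ± 0.28, -0.23 ± 0.20, 0.13 ± 0.23 and 0.33 ± 0.21. Calr and Edem2 lost their calls at the 5% mitochondrial limit. With no filter on low counts or with stricter gates, 16 genes were called in NK cells, and with the stricter cell filter 15.

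Oxidative folding was 0 higher and 8 lower of 13 in NK cells, with Erp29 (log2 fold change -2.19 ± 0.21) and Pdia5 (1 and 1 UMIs in NK cells, against 55 and 160 UMIs in other macrophages). Regulators had 0 higher and 5 lower of 10, with Nupr1 (log2 fold change -5.73 ± 0.63) and Atf5 (log2 fold change -1.49 ± 0.33), and transport 0 higher and 5 lower of 21, with Mcfd2 (log2 fold change -2.23 ± 0.21) and Sec24b (log2 fold change -1.20 ± 0.25). Targeting and translocation had 6 higher and 0 lower of 20, a share near that of all genes, with Sec11c (log2 fold change 1.10 ± 0.22) and Srp54a (log2 fold change 0.88 ± 0.27). ATF4 targets had 2 higher and 5 lower of 20. Gdf15 had 0 and 0 UMIs in NK cells, against 617 and 261 UMIs in other macrophages, and Slc7a11 had 1 and 0 UMIs in NK cells, against 1634 and 606 UMIs in other macrophages. N-glycosylation had 2 higher and 1 lower of 12, with Rpn1 (log2 fold change -0.66 ± 0.23) and Stt3b (log2 fold change 0.47 ± 0.19), and the degradation list 0 higher and 2 lower of 13, with Ube2g2 (log2 fold change -0.49 ± 0.19) and Derl2 (log2 fold change -0.47 ± 0.18). Dissociation genes were 1 higher and 7 lower of 13, led by Hspa1a (log2 fold change -3.91 ± 0.96) and Hspa1b (log2 fold change -3.38 ± 0.83), and their part was not tested.

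Collagen-positive cells, which the CD45 sort should not hold, numbered 25 and 37. They had the ATF4 targets and the translocon high and the sensors and degradation genes low, with 7 of the 30 genes higher and 10 lower than other macrophages. Across the fit, 27.8% of the 12232 genes tested were called higher and 22.8% lower, and the median log2 fold change was -0.12 over the 30 genes and 0.032 over all genes tested. The 7 higher genes make up a share of the 30 no greater than that of all genes. All 3 ATF4 targets and all 3 translocon genes were higher, and 3 of 5 sensors and factors and 4 of 5 degradation genes were lower. No called gene overlapped between the groups, a share not given for all genes called in collagen-positive cells.

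Asns had 99 and 98.6 CPM in collagen-positive cells, against 5.25 and 30.6 in other macrophages (log2 fold change 2.69 ± 0.39, adjusted p = 2.45e-06, 3.99 in replicate 1 alone, 1.56 in replicate 3 alone). Its level in collagen-positive cells was nearly the same in both tumours, while that of other macrophages differed. Trib3, a pseudokinase induced through ATF4, had 13 and 11 UMIs in collagen-positive cells, against 29 and 71 UMIs in other macrophages (log2 fold change 2.52 ± 0.71, adjusted p = 0.00447, 1.78 in replicate 3 alone). Chac1 had 5 and 11 UMIs in collagen-positive cells, against 4 and 29 UMIs in other macrophages (log2 fold change 3.58 ± 0.62, adjusted p = 3.49e-05, 2.78 in replicate 1 alone, 2.66 in replicate 3 alone). Atf4 itself was not called, with 270.3 and 355 CPM in collagen-positive cells, against 247 and 266 in other macrophages (log2 fold change 0.15 ± 0.20, adjusted p = 0.568). Sec61a1 had 130.2 and 88.6 CPM in collagen-positive cells, against 54.7 and 53.8 in other macrophages (log2 fold change 0.86 ± 0.18, adjusted p = 0.00023). Ssr1 had 198 and 161 CPM in collagen-positive cells, against 92.4 and 91.8 in other macrophages (log2 fold change 0.82 ± 0.17, adjusted p = 0.000264). Sec61b had 649.5 and 811 CPM in collagen-positive cells, against 320.3 and 444 in other macrophages (log2 fold change 0.81 ± 0.21, adjusted p = 0.00234). The whole translocon set thus lay above other macrophages in both tumours. Pdia4 was the 1 folding gene that rose, with 119.5 and 150.2 CPM in collagen-positive cells, against 75.7 and 77.4 in other macrophages (log2 fold change 0.69 ± 0.21, adjusted p = 0.00796).

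Sdf2l1 had 24.4 and 32.7 CPM in collagen-positive cells, against 121 and 184 in other macrophages (log2 fold change -2.55 ± 0.31, adjusted p = 1.09e-07). Herpud1 had 56.3 and 95.4 CPM in collagen-positive cells, against 129.5 and 303 in other macrophages (log2 fold change -1.58 ± 0.29, adjusted p = 4.86e-05). Edem2 had 19.0 and 39.5 CPM in collagen-positive cells, against 71.0 and 55.4 in other macrophages (log2 fold change -1.16 ± 0.27, adjusted p = 0.000705, -2.02 in replicate 1 alone). These genes had the smallest adjusted p among the 10 called lower, and 2 of them belong to degradation. Sel1l had 30.5 and 23.7 CPM in collagen-positive cells, against 44.8 and 42.2 in other macrophages (log2 fold change -0.83 ± 0.20, adjusted p = 0.000988). Dnajb9 had 31.2 and 42.7 CPM in collagen-positive cells, against 75.9 and 65.9 in other macrophages (log2 fold change -1.04 ± 0.29, adjusted p = 0.00378). Dnajb11, another J-domain partner of BiP, had 69.3 and 77.5 CPM in collagen-positive cells, against 103 and 132 in other macrophages (log2 fold change -0.81 ± 0.24, adjusted p = 0.00697). All 3 lay below other macrophages in both tumours. Atf6 had 22.8 and 11.1 CPM in collagen-positive cells, against 32.5 and 30.6 in other macrophages (log2 fold change -1.10 ± 0.30, adjusted p = 0.00306), and Ern1 had 6.85 and 3.69 CPM in collagen-positive cells, against 15.1 and 8.56 in other macrophages (log2 fold change -1.30 ± 0.43, adjusted p = 0.0142). Xbp1 and Edem1 were also lower. Hspa5 (log2 fold change -0.26 ± 0.28, adjusted p = 0.478) and Ddit3 (log2 fold change -0.31 ± 0.24, adjusted p = 0.304) were not called. Pdia4, Sec61b and Ssr1 lost their calls with no filter on low counts.

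Beyond the 30 genes, ATF4 targets were 12 higher and 3 lower of 20 in collagen-positive cells, with Phgdh (log2 fold change 5.0 ± 0.33), the first enzyme of serine synthesis, and Gdf15 (log2 fold change -2.85 ± 1.01) farthest apart. Transport had 9 higher and 1 lower of 21, with Kdelr3 (log2 fold change 7.33 ± 0.27), a receptor that returns ER proteins, and Sec23a (log2 fold change 1.77 ± 0.27). N-glycosylation had 7 higher and 0 lower of 12, with Ganab (log2 fold change 0.66 ± 0.18) and Ostc (log2 fold change 0.63 ± 0.22). Targeting had 7 higher and 3 lower of 20, with Ssr3 (log2 fold change 1.00 ± 0.23) and Ssr2 (log2 fold change 0.80 ± 0.21), and oxidative folding 5 higher and 3 lower of 13, with Pdia5 (log2 fold change 2.84 ± 0.38) and Txndc5 (log2 fold change 2.45 ± 0.17). Regulators had 5 higher and 2 lower of 10, with Atf5 (log2 fold change 2.96 ± 0.21) and Creb3l2 (log2 fold change 2.83 ± 0.28), and the degradation list 3 higher and 1 lower of 13, with Faf2 (log2 fold change 1.08 ± 0.17) and Vcp (log2 fold change 0.99 ± 0.18). Dissociation genes had 3 higher and 5 lower of 13, with Hspa1a (log2 fold change -3.00 ± 0.87) and Zfp36 (log2 fold change -2.72 ± 0.31).

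Collagen-positive cells also held the reporters YFP and RFP at 177 and 64.3 CPM, epithelial markers at 54.1 and 602, the dividing list at 944 and 1466 and the macrophage list at 774 and 109.7. The 6 collagen-positive markers summed to 11320 and 10520. Whether tumour cells or cell division take part in these fold changes of collagen-positive cells was not tested.

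Among the subset classes, Atp6v0d2 Mmp9 macrophages carry markers shared with osteoclasts. Their gate was also open to cells that passed no lineage gate, so not all of them passed the macrophage gate. They had 3 of the 30 genes higher and 2 lower than other macrophages. For background, 18% of the 12232 genes tested were called higher and 15.2% lower, and the median log2 fold change was -0.11 over the 30 genes and -0.018 over all genes tested. Edem1 had 187 and 191 CPM in Atp6v0d2 Mmp9 macrophages, against 82.2 and 78.8 in other macrophages (log2 fold change 1.32 ± 0.18, adjusted p = 1.93e-06), the highest pair of values of any class. Asns had 45.8 and 96.2 CPM in Atp6v0d2 Mmp9 macrophages, against 5.25 and 30.6 in other macrophages (log2 fold change 2.23 ± 0.40, adjusted p = 7.59e-05, 3.17 in replicate 1 alone). Chac1 had 1 and 19 UMIs in Atp6v0d2 Mmp9 macrophages, against 4 and 29 UMIs in other macrophages (log2 fold change 3.22 ± 0.60, adjusted p = 0.000185, with 1 UMI in replicate 1, 2.53 in replicate 3 alone). Herpud1 had 65.2 and 91.7 CPM in Atp6v0d2 Mmp9 macrophages, against 129.5 and 303 in other macrophages (log2 fold change -1.32 ± 0.29, adjusted p = 0.000839). Edem2 had 35.5 and 33.2 CPM in Atp6v0d2 Mmp9 macrophages, against 71.0 and 55.4 in other macrophages (log2 fold change -0.79 ± 0.26, adjusted p = 0.02), so the 2 Edem genes moved in opposite directions. None of the 5 genes overlapped between the groups, and the share over all called genes is not given.

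Hspa5 had 738 and 1007 CPM in Atp6v0d2 Mmp9 macrophages, against 635 and 983 in other macrophages, and was not called (log2 fold change 0.21 ± 0.28, adjusted p = 0.612). Xbp1, Atf4, Ddit3 and Sec61b were not called either, at log2 fold changes of -0.083 ± 0.27, 0.30 ± 0.20, -0.43 ± 0.24 and 0.39 ± 0.21. ATF4 targets were 9 higher and 5 lower of 20 in Atp6v0d2 Mmp9 macrophages, with Gdf15 (0 and 1 UMIs in Atp6v0d2 Mmp9 macrophages, against 617 and 261 UMIs in other macrophages) and Ddit4 (log2 fold change -3.18 ± 0.70) lowest. Targeting had 6 higher and 0 lower of 20, with Srp68 (log2 fold change 1.23 ± 0.21) and Sec11c (log2 fold change 1.03 ± 0.22). Transport had 3 higher and 1 lower of 21, with Sec24b (log2 fold change -0.90 ± 0.24) and Kdelr2 (log2 fold change 0.69 ± 0.16), and regulators 3 higher and 1 lower of 10, with Creb3l2 (log2 fold change 2.46 ± 0.29) and Mbtps2 (log2 fold change 0.71 ± 0.27). N-glycosylation had 2 higher and 0 lower of 12, Prkcsh (log2 fold change 0.55 ± 0.18) and Mogs (log2 fold change 0.52 ± 0.20). Oxidative folding had 1 higher and 1 lower of 13, Erp29 (log2 fold change 0.91 ± 0.20) and Qsox1 (log2 fold change -1.56 ± 0.22), and the degradation list 1 higher and 1 lower of 13, Ube2g2 (log2 fold change 0.55 ± 0.17) and Derl2 (log2 fold change -0.50 ± 0.18).

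Markers of division summed to 341 and 743 CPM in Atp6v0d2 Mmp9 macrophages, against 59.4 and 106 in other macrophages. The macrophage list summed to 2502 and 629.8, against 16890 and 17730. Both sums of Atp6v0d2 Mmp9 macrophages lie below the minimum of the macrophage gate, 50 UMIs per 10000. Dissociation genes were 1 higher and 8 lower of 13 in Atp6v0d2 Mmp9 macrophages, with Egr1 (log2 fold change -4.21 ± 0.66) and Dusp1 (log2 fold change -2.18 ± 0.32). Their part in the fold changes was not tested. With no filter on low counts 11 of the 30 genes were called in Atp6v0d2 Mmp9 macrophages, 3 higher and 8 lower.

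Dividing macrophages had 1 of the 30 genes higher and 1 lower than other macrophages. In this comparison 9.17% of the 12232 genes tested were called higher and 4.14% lower, and the median log2 fold change was -0.13 over the 30 genes and -0.035 over all genes tested. Asns had 14.4 and 91.5 CPM in dividing macrophages, against 5.25 and 30.6 in other macrophages (log2 fold change 1.61 ± 0.37, adjusted p = 0.00322). Its values overlapped across tumours, and within each tumour dividing macrophages were the higher class. Dnajb9 had 38.8 and 33.0 CPM in dividing macrophages, against 75.9 and 65.9 in other macrophages (log2 fold change -1.06 ± 0.27, adjusted p = 0.00677) and did not overlap. Asns lost its call in DESeq2, which called 0 genes higher and 4 lower, and 10 genes were called with no filter on low counts. Hspa5, Xbp1, Atf4, Ddit3 and Sec61b were not called, and their log2 fold changes ran from -0.51 for Hspa5 to 0.18 for Ddit3.

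ATF4 targets outside the 30 were 9 higher and 1 lower of 20 in dividing macrophages, with Mthfd2 (log2 fold change 2.02 ± 0.22) and Phgdh (log2 fold change 1.90 ± 0.32), both enzymes of serine and one-carbon metabolism. Oxidative folding had 2 higher and 0 lower of 13, Prdx4 (log2 fold change 1.21 ± 0.23) and Tmx1 (log2 fold change 0.59 ± 0.19). The single calls Ganab (log2 fold change 0.50 ± 0.16), Sec24d (log2 fold change -1.08 ± 0.30) and Egr1 (log2 fold change -1.43 ± 0.47) came from N-glycosylation, transport and the dissociation list, which had 0 higher and 1 lower of 13. Regulators, the degradation list and targeting had none. The dividing markers summed to 2919 and 2867 CPM in dividing macrophages, against 59.4 and 106 in other macrophages.

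The other 5 macrophage subsets had 0 of the 30 genes called in either direction, by edgeR and by DESeq2. Few genes of any kind were called there: 1.01% and 0.466% of the 12232 genes were called higher and lower in Folr2 Fcna Cbr2 macrophages, 1.2% and 0.613% in Mgl2 Asgr2 macrophages, 0.0245% and 0.00818% in Hmox1 Fbxo32 Mt2 macrophages, 0.221% and 0.229% in Vcam1 Hes1 macrophages and 2.91% and 0.278% in Ifit Rsad2 macrophages. At an unadjusted p below 0.05 there was 1 higher gene in Mgl2 Asgr2 macrophages (Dnajc3), 1 lower in Hmox1 Fbxo32 Mt2 macrophages (Asns), 1 of each in Vcam1 Hes1 macrophages (Herpud1 and Asns), 1 lower in Ifit Rsad2 macrophages (Sec61a1) and 0 in Folr2 Fcna Cbr2 macrophages. These genes were chosen after their values were seen.

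Over these 5 subsets the log2 fold changes ranged over -0.13 to 0.25 for Hspa5, -0.089 to 0.10 for Xbp1, -0.33 to 0.33 for Atf4, -0.41 to 0.22 for Ddit3, -0.28 to 0.31 for Sec61b and -1.90 to -0.73 for Asns. Asns was nearest to a call in Vcam1 Hes1 macrophages, with 2.95 and 4.90 CPM in Vcam1 Hes1 macrophages, against 5.25 and 30.6 in other macrophages (log2 fold change -1.90 ± 0.47, adjusted p = 0.074). Herpud1 there had 215 and 445 CPM in Vcam1 Hes1 macrophages, against 129.5 and 303 in other macrophages (log2 fold change 0.65 ± 0.26, adjusted p = 0.458). Within each tumour Vcam1 Hes1 macrophages had less Asns and more Herpud1. Of the other lists, Gpt2 (log2 fold change 1.45 ± 0.31) rose in Folr2 Fcna Cbr2 macrophages, and Atf5 (log2 fold change -1.09 ± 0.23), a relative of Atf4, and Mthfd2 (log2 fold change -1.17 ± 0.24) fell in Vcam1 Hes1 macrophages. No other gene of the lists was called in these 5 subsets. With no filter on low counts Asns, and no other of the 30 genes, was called lower in Folr2 Fcna Cbr2, Mgl2 Asgr2, Hmox1 Fbxo32 Mt2 and Vcam1 Hes1 macrophages.

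Ordered by mean level over the 16 classes, several genes had 1 class apart from the rest. Xbp1 ran from 643 to 735 CPM in plasmacytoid DCs over 202 to 335 in neutrophils and 177 to 180.4 in monocytes to 37.3 to 51.9 in Ccr7 Fscn1 DCs, each range spanning both tumours. Those 3 highest classes did not overlap. The macrophage subsets and other macrophages lay between 113 and 176, and most neighbours there overlapped. Ddit3 was highest in neutrophils, at 147 to 220.2, and then in plasmacytoid DCs, at 74.0 to 136, without overlap. It was lowest in Ccr7 Fscn1 DCs, at 14 to 21.9, and conventional DCs, at 14.1 to 33.6, which overlapped.

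Hspa5 had no such order. Its highest class by mean, plasmacytoid DCs at 747 to 1224 CPM, overlapped with most classes, and Ccr7 Fscn1 DCs were lowest at 294 to 582. Sec61b ran from 902 to 950.2 in plasmacytoid DCs to 155 to 321 in neutrophils. Herpud1 was highest in plasmacytoid DCs, at 392 to 629.5, and its values in T cells, at 47.8 to 91.6, and NK cells, at 36.6 to 105, overlapped at the low end. Edem1 ran from 187 to 191 in Atp6v0d2 Mmp9 macrophages and 157 to 162 in monocytes to 44.4 to 65.0 in plasmacytoid DCs. Edem2 had 264 to 281 in plasmacytoid DCs as its highest. Asns was highest in collagen-positive cells, at 98.6 to 99, above 45.8 to 96.2 in Atp6v0d2 Mmp9 macrophages and 14.4 to 91.5 in dividing macrophages, which overlapped. Its lowest class was plasmacytoid DCs, at 0 to 0.915.

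**Figure D3:**
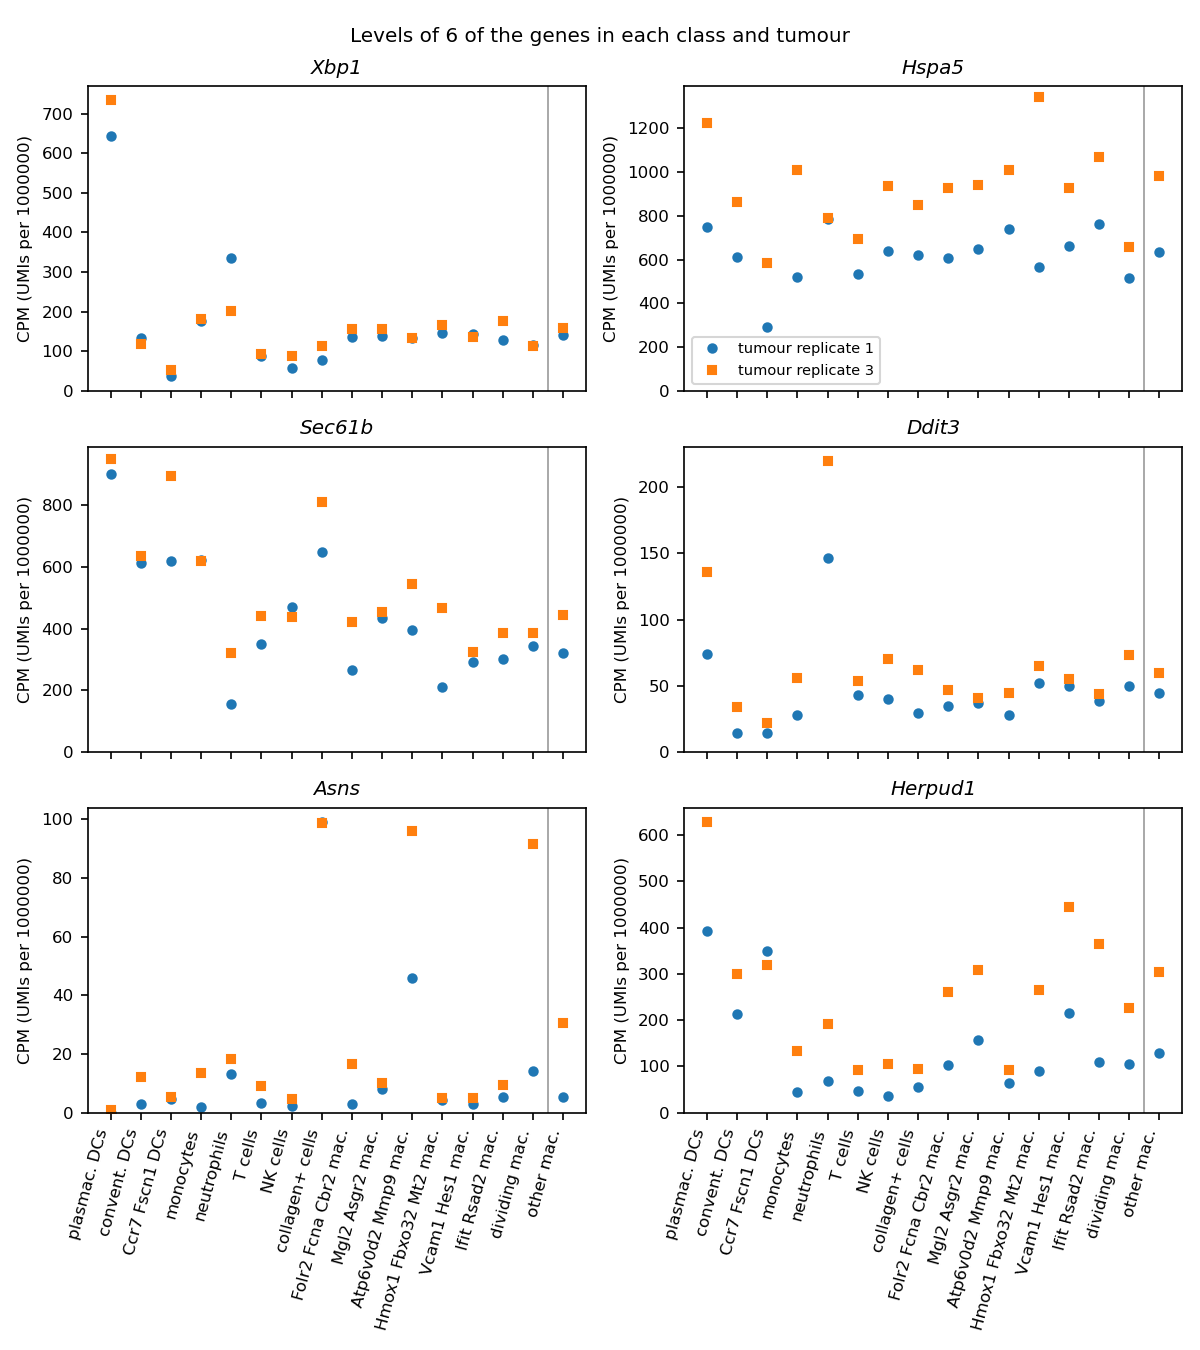
Levels in CPM (UMIs per 1000000 UMIs of the class sum) for Xbp1, Hspa5, Sec61b, Ddit3, Asns and Herpud1, 1 panel each, in 16 classes along the axis. Blue circles are replicate 1 and orange squares replicate 3, and other macrophages stand right of the grey line. Xbp1 in plasmacytoid DCs lies at 643 to 735, above all other classes, while Asns in other macrophages is at 30.6 in replicate 3 and 5.25 in replicate 1.

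Some cells were left out of the test and are given as levels. C1q-low phagocytes, 89 and 633 cells with macrophage markers at 10 to 50 UMIs per 10000 and no other gate passed, had Asns at 15.3 and 45.2 CPM and Herpud1 at 60.7 and 136. The macrophage gate starts at 50, and 91 of 2962 and 248 of 3870 cells of both ranges lay between 40 and 60 UMIs per 10000. Xbp1 had 105 and 123 CPM in regulatory T cells and 75.7 and 66.1 in CD8 T cells, both contained in T cells.

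Between tumours, Asns differed more than any other of the 30 genes in other macrophages. It had 30.6 CPM in replicate 3, against 5.25 in replicate 1, a ratio of 5.83. With 1 tumour a side there is no test. Of 12264 genes with at least 10 UMIs in both sums, 0.0652% had a ratio at least as high. In dividing macrophages the ratio was 6.37, reached by 0.0337% of genes, and in Folr2 Fcna Cbr2 macrophages 5.52. In Vcam1 Hes1, Mgl2 Asgr2 and Atp6v0d2 Mmp9 macrophages the highest ratios of any of the 30 genes were 2.07, 1.98 and 2.41. The Asns ratio was reached there by 3.55%, 17.9% and 1.82% of genes. Collagen-positive cells had 98.6 CPM in replicate 3, against 99 in replicate 1. A difference of this size was thus not shared by every class, nor by every macrophage subset. Free RNA had 34.2 CPM in replicate 3, against 16.2 in replicate 1.

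Other ATF4 targets did not follow Asns as a group in other macrophages: 13 of 20 were higher in replicate 3, with a median ratio of 1.1. Slc7a5, an amino acid transporter, had 15.0 CPM in replicate 3, against 1.67 in replicate 1, and Phgdh had 11.4 CPM in replicate 3, against 3.54 in replicate 1. Slc7a11 ran the other way, with 11 CPM in replicate 3, against 63.6 in replicate 1, as did Gdf15, with 4.72 CPM in replicate 3, against 24.0 in replicate 1, and Ddit4, with 15.9 CPM in replicate 3, against 96.0 in replicate 1. In dividing macrophages 15 of 17 were higher in replicate 3, with a median ratio of 1.46. In T cells the count was 10 of 16, in collagen-positive cells 8 of 16 and in monocytes 9 of 15.

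Over the 30 genes the median ratio of replicate 3 to replicate 1 was 1.13 in other macrophages, with 18 of 29 genes of at least 10 UMIs higher in replicate 3, against 0.930 over all genes. In free RNA the median over the 30 genes was 1.45, and no gene of 28 had a ratio below 1. The ratio over all genes in free RNA is not given, so this count has no background. Herpud1 had the highest ratio of the 30 in several classes. It was 3.01 in monocytes, 2.86 in NK cells and 1.92 in T cells, and it was also the gene with the highest ratio in free RNA, at 2.38. Ern1 had the lowest ratio in other macrophages, at 0.565, and in C1q-low phagocytes, at 0.533.

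Across the 32 class sums, with each tumour centred on its own mean, the folding genes varied together most. The median Pearson r over 91 pairs of folding genes was 0.596 (-0.588 to 0.898). Pdia4 and Pdia6 were closest, at 0.898, then Dnajc3 and Creld2, at 0.892, and Hsp90b1 and Pdia6, at 0.882. Dnajb9 stood outside, with -0.588 to Pdia3. Folding genes had a median r of 0.312 with translocon genes, 0.132 with sensors and factors, 0.0594 with degradation genes and -0.185 with ATF4 targets. The sums share libraries and differ in depth, so these values describe them and carry no test.

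The 8 genes whose promoters hold the ERSE had a median r of 0.446 over 28 pairs (0.0785 to 0.892), and 144 pairs with 1 such gene had 0.134. Of the 8 genes, 7 are folding genes, and the part of the role in these values was not tested. In plasmacytoid DCs 3 of the 8 were higher than in other macrophages, and 8 of the 18 genes with a promoter and no element. In neutrophils 6 of the 8 were lower, and 3 of the 18, where 16.3% of all genes were called lower. Without the neutrophil sum of replicate 1, Pdia6, Creld2 and Dnajc3 lost their calls, which leaves 3 of the 8.

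**Figure D4:**
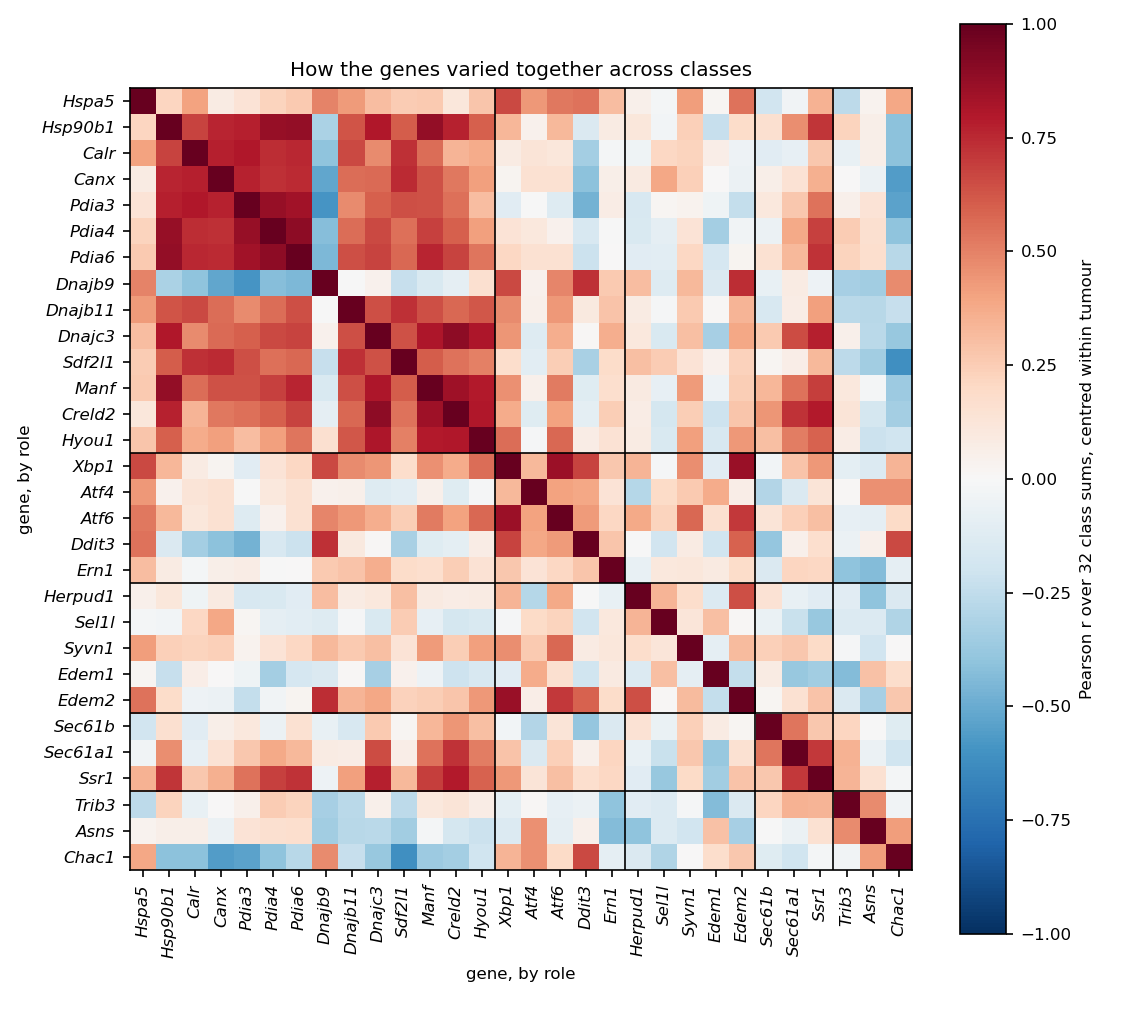
Pearson r between the 30 genes over 32 class sums centred within tumour, with genes ordered by role along both axes and a colour scale from -1 to 1. The folding block has a median of 0.596 and pairs of folding genes with ATF4 targets a median of -0.185.

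Spatial codes divided macrophages within a tumour. The labels tie no code to a region, so the codes are given by name. Of 2873 macrophages with at least 10 code UMIs in replicate 1, ZC1 held the majority of those UMIs in 260, ZC5 in 630 and ZC2 in 8. Most of the 2873 had no majority code and are not in these levels. Between ZC1 and ZC5, levels of 29 of the 30 genes differed by ratios of 0.690 for Trib3 to 1.38 for Asns. These extremes rest on few molecules, 3 and 10 UMIs of Trib3 and 33 and 55 of Asns, and Chac1 had 0 UMIs under ZC1. Asns had 6.19 (4.26 to 8.70) CPM under ZC1, against 4.49 (3.38 to 5.84) under ZC5, with exact 95% Poisson intervals that overlap. Herpud1 had 119 (110.2 to 129) under ZC1, against 159.7 (153 to 167) under ZC5, beyond counting error in this 1 tumour. Of 3234 such macrophages in replicate 3, ZC6 held the majority in 2989 and ZC5 in 68. Herpud1 had 188 (169.8 to 208) under ZC5, against 298 (294 to 302) under ZC6, and Asns had 38.0 (30.1 to 47.3) under ZC5, against 36.7 (35.4 to 38.1) under ZC6. Hspa5 differed little by code, with 628 (607 to 650) under ZC1 and 642 (628 to 656) under ZC5 in replicate 1. The intervals cover counting error only, and cells of 1 tumour are not replicates.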

How the data were processed

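The deposited matrices hold raw UMI counts per gene and barcode, made by the authors with Cell Ranger 4.0 on mm10, per the submitters' processing notes and the file headers. Depths and cell numbers stand in the report. The 30 genes, the pathway lists and the markers were chosen with earlier results of these data known, and gate thresholds were set after marker counts were seen. A cell needed 1000 UMIs, 500 genes and no more than 10% of its UMIs from mitochondrial genes. Doublets were scored with scrublet in scanpy 1.11.5; its own threshold marked 0 and 0 barcodes, so the highest scores were removed at 0.8% per 1000 cells (186 and 363 barcodes). Cells passing no gate (275 and 707), several gates (193 and 117) or several macrophage subset gates (292 and 109) were left out. These counts exclude cells that were kept by rule. Cells in the plasmacytoid DC and cDC2 gates alone counted as plasmacytoid DCs, and cells in the cDC1 and cDC2 gates alone as conventional DCs. Cells in no lineage gate that passed the Atp6v0d2 Mmp9 gate joined that class.

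UMI counts, as deposited, were summed per class and tumour. The 32 sums of 16 classes were fitted with edgeR 4.0.16 in R 4.3.3 (TMM, filterByExpr, quasi-likelihood test, Benjamini-Hochberg over 12232 genes, 15 residual degrees of freedom), with the tumour as a block; 110 gate genes were left out. The standard error is the absolute log2 fold change divided by the square root of F. The block pairs sums that come from the same tumour, and 117 of 120 class pairs deviated together (correlation above 0.1 over genes, median 0.333, range 0.066 to 0.821). Of the called genes, up to 8 per direction with the smallest adjusted p are named, plus Hspa5, Xbp1, Atf4, Ddit3, Sec61b and Asns, and the 2 called genes farthest from 0 in each other list, apart from an item that is not reported here. Genes with at most 3 UMIs in a class are given as UMIs. Intervals and the limit of 3 counts cover counting error only. Alternatives were DESeq2 1.42.0, other filters, gates and doublet handling, 10% of the UMIs of each class subtracted as free RNA, no block, and each tumour left out. Leaving out single class sums was added after the data were seen. The fit was tested on simulated data with 200 changed genes. No column of other samples was present (0).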

Additional observations from a re-analysis of the deposited data

How the results depend on the processing

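Of the 124 calls, 119 kept their side of the threshold in DESeq2, 114 with no filter on low counts, 116 with free RNA subtracted, 117 without doublet removal and 118 with stricter gates. Classes left with fewer than 10 cells in a tumour dropped out: neutrophils (18 and 1 cells) under the stricter cell filter, plasmacytoid DCs (3 and 13 cells) at the 5% mitochondrial limit, which therefore did not test their calls, and Mgl2 Asgr2 and Hmox1 Fbxo32 Mt2 macrophages with stricter gates. The same tumour supplies both sums of a pair, and without the replicate block the genes called numbered 2 in conventional DCs, 6 in Ccr7 Fscn1 DCs, 1 in monocytes, 6 in T cells, 3 in NK cells, 10 in collagen-positive cells, 3 in Atp6v0d2 Mmp9 macrophages, 0 in dividing macrophages and 10 between plasmacytoid and conventional DCs. With no filter on low counts there were 16 in NK cells, 11 in Atp6v0d2 Mmp9 macrophages, 10 in dividing macrophages and 1 each in Folr2 Fcna Cbr2, Mgl2 Asgr2, Hmox1 Fbxo32 Mt2 and Vcam1 Hes1 macrophages. NK cells had 15 under the stricter cell filter and 16 with stricter gates. Dividing macrophages had 4 in DESeq2 and 4 with free RNA subtracted. Neutrophils had 8 without neutrophils replicate 1 and 17 without replicate 3. The cause of these shifts was not tested.

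Leaving out a tumour reversed 4 directions. Ern1 in plasmacytoid DCs had a log2 fold change of -1.28 without replicate 3 and 1.67 without replicate 1 over other macrophages, and -0.97 and 2.43 over conventional DCs. In neutrophils Hspa5 had -0.35 without replicate 1 and 1.36 without replicate 3, and Atf6 -0.19 and 1.73. In the joint fit without the neutrophil sum of replicate 1 they had -0.35 and -0.15. Dnajb9 in T cells reversed under the stricter cell filter (-0.18). With 1 tumour left, no residual degrees of freedom remain and no calls were counted. DESeq2 moved the median of all genes by -0.0608 (T cells) to 0.323 (Ccr7 Fscn1 DCs) on the log2 scale, and no call reversed. Depth limits Asns, Chac1 and Trib3 most, since several class sums held under 10 of their UMIs, and neutrophils, whose cells held the fewest UMIs.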
